A study of Mus musculus with 6 samples.

Results

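The 58 genes described here build and steer mitosis: the cyclins and kinases that start it, the kinetochore and spindle that move the chromosomes, the checkpoint that holds them, and the ring that cuts the cell apart. They were chosen by gene name, with earlier results of these data known, and all 58 were found once each among the 56941 genes of the count table. In a dividing cell, cyclin B with Cdk1 drives entry into mitosis, microtubules of the spindle attach to kinetochores on the centromeres, and unattached kinetochores hold the anaphase-promoting complex (APC/C) in check until every chromosome is attached. Securin and cyclin B are then destroyed, separase opens cohesin, and the central spindle places the cleavage furrow. Most of these genes are transcribed mainly in G2 and M phase, so their RNA is scarce in resting cells. Hair follicle stem cells (HFSCs) of the bulge rest for long periods, and their progeny in the hair germ and matrix divide fast during hair growth.

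Total RNA of HFSCs, sorted as CD34+/α6-integrin+ cells from the dorsal skin of females at PD68, was sequenced in 3 biological replicates of each labelled genotype, WT and Dab2-cKO. All mice were of the strain labelled B6;129S4-Dab2tm1Cpr/J and carried floxed alleles on both copies of Dab2 (Dab2 fl/fl), and by the labels all were given tamoxifen at 75 mg/kg on 5 days. The Dab2-cKO mice also carried K14 Cre, and the WT mice did not. The K14 promoter is active in basal keratinocytes of the epidermis and follicle and not in dermal, immune or muscle cells.

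The library totals lay between 7040032 and 11696457 counts. The targeted gene went against its label. Dab2 rose from a normalized count of 327 ± 15.4 (WT) to 1375 ± 68.2 (Dab2-cKO; SD, n = 3 each), a log2 difference of 2.08 (edgeR's adjusted p = 3.04e-34), so genotypes are given throughout as the libraries are labelled. In the count table the columns of the libraries labelled Dab2-cKO are named FL-FL, a name that would suit the floxed alleles of either genotype. Whether the columns of the genotypes were exchanged was not tested, and an exchange would turn every direction given below. The share of counts from mitochondrial genes was 12.99 to 14.45% in WT and 19.12 to 20.29% in Dab2-cKO. Marker lists of other cells also differed, all but that of the bulge by a larger median than the members. For the list of hair matrix, inner root sheath and shaft, 25 of 25 genes were lower and the summed normalized count was 261960 to 314323 in WT and 3731 to 3775 in Dab2-cKO. All 6 hair germ markers were lower, summed 3715 to 4238 and 885 to 1002, and 7 of 8 melanocyte markers were lower, summed 3663 to 4013 and 1358 to 1392. The sums rose for fibroblasts (8 of 8 genes higher, 102081 to 123492 and 356588 to 376325) and for skeletal muscle (7 of 7 higher, 24128 to 27985 and 134974 to 138246). They were also higher for immune cells (8 of 10 genes, 1825 to 1998 and 7904 to 8054), for endothelial cells (8 of 8 genes, 1539 to 1726 and 5416 to 5519), for the sebaceous gland (8 of 8, 10036 to 11519 and 27225 to 28214) and for differentiated epidermis (6 of 7, 11577 to 13459 and 44985 to 45608). Of 12 bulge markers, 7 were higher, Cd34 and Itga6 of the sort among them, and 3 were lower (Sox9, Lhx2 and Lgr5), with sums of 21384 to 24513 and 37430 to 38454. No gene of these lists was at 0 in a whole genotype. In sorted bulk RNA, fewer dividing cells and less mitotic RNA per cell cannot be told apart, and the part of these marker differences and of the mitochondrial share in the results below was not tested.

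All 58 mitosis genes passed the expression filter, and 56 were lower in the libraries labelled Dab2-cKO at an adjusted p under 0.05, beside 11.5% of the 32149 genes tested. None was higher by edgeR or by DESeq2, nor at an unadjusted p under 0.05, as all 58 log2 fold changes were below 0, and 16.8% of all genes were higher by edgeR. The remaining members, Bub3 and Cdc25b, did not pass. By more than 1.5-fold, 55 members were lower, against 7.19% of all genes. The median log2 fold change of the 58 genes was -1.21, and the middle of their values lay between -1.47 and -0.94 (quartiles), whereas the median of all genes tested was -0.02. In 54 members the change was among the lowest 10% of all genes. In 57 of 58 members all Dab2-cKO libraries were lower than all WT libraries, which held for 17.7% of all genes; the exception was Bub3.

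Summed over the 58 genes, the normalized count was 28126, 29894 and 29370 in WT replicates 1 to 3. In Dab2-cKO replicates 1 to 3 the sum was 11290, 11188 and 11169. The Dab2-cKO sums were thus close to one another and far under every WT sum. Before scaling, the members took 0.350% to 0.361% of the counts of a WT library and 0.101% to 0.104% of a Dab2-cKO library. Mki67 made up 20.8% to 21.9% of the WT sum and 12.1% to 13.03% of the Dab2-cKO sum. Without Mki67 and Top2a, the other 56 genes summed to 19888 to 20780 in WT and to 9006 to 9116 in Dab2-cKO. No single library carried the change: the median member lay at log2 values of -1.19, -1.19 and -1.26 relative to the WT mean in Dab2-cKO replicates 1 to 3, and within 0.06 of it in each WT library.

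**Figure D1:**
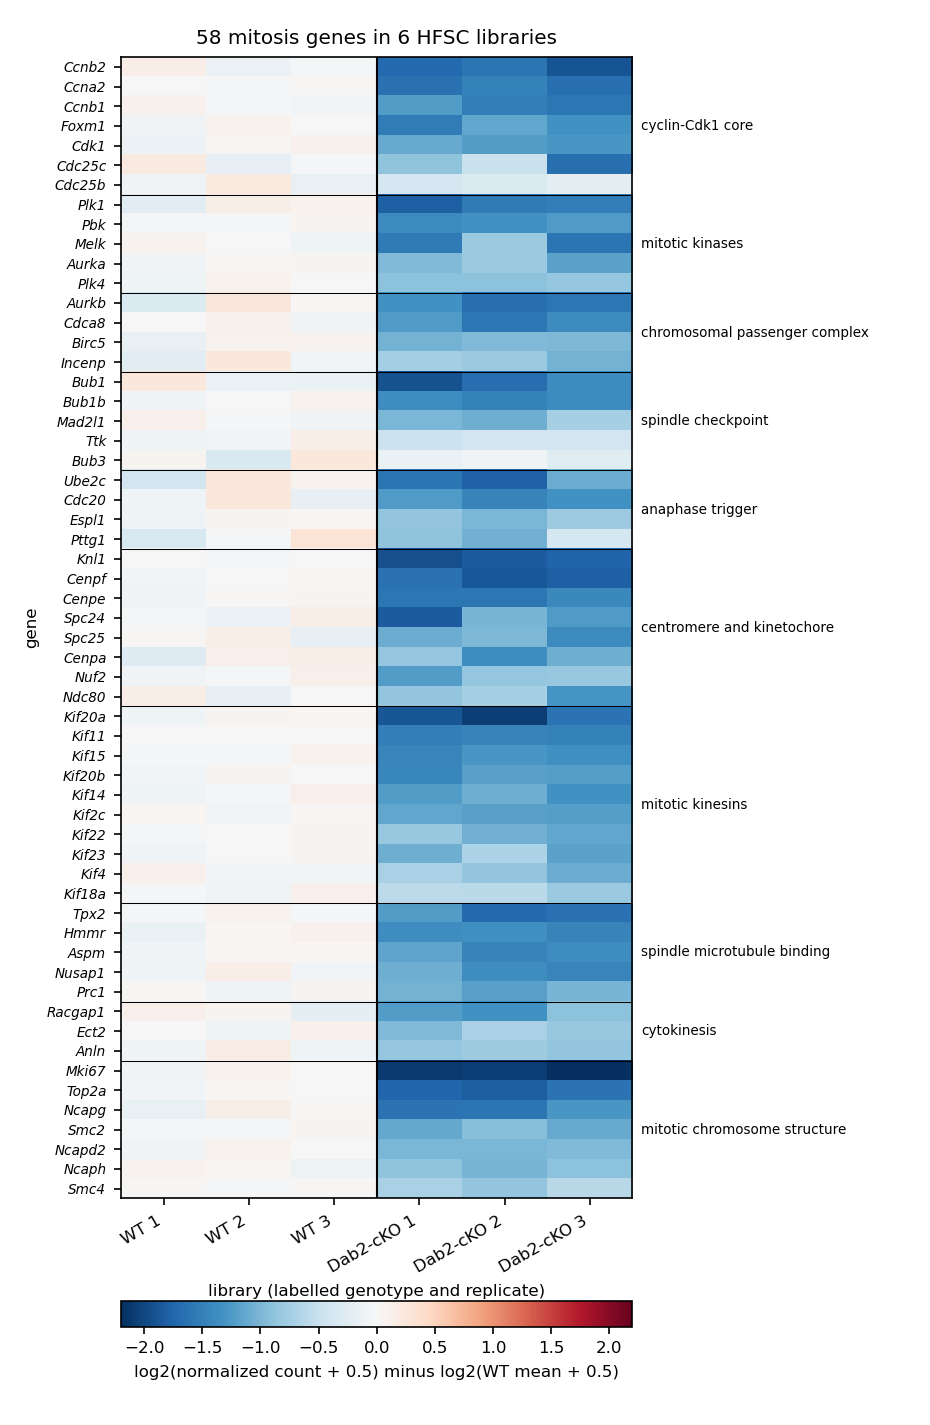
Heat map of the 58 mitosis genes (rows, grouped by role) in the 3 libraries labelled WT and the 3 labelled Dab2-cKO (columns), with color for the log2 of the normalized count relative to the WT mean. The 3 Dab2-cKO columns are blue over nearly the whole map, palest at Bub3 and Cdc25b and deepest at Mki67.

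The promoters of the members have features in common that their choice did not use. Many mitotic genes are known to carry the cell cycle genes homology region (CHR), a short element near the start that recruits the MuvB complex, and CCAAT boxes, bound by NF-Y. Promoters of 250 bases before to 50 after each start were taken from RefSeq (GRCm38.p6), which held 51 promoters of 48 members. A CHR was searched as TTTGAA, and its known variant, the palindrome TTCGAA, was counted too. The box was searched by the letters of its name, CCAAT. Both strands were read. Neighbouring boxes on opposite strands may share bases. Parts of 7 promoters are shown to let these letters be seen in genes that were lower in Dab2-cKO and hold them (Top2a, Ccnb2, Cenpf, Kif11, Bub1b, Cdk1) and in Plk4, also lower, whose promoter held neither of the motifs in these forms. Each runs from 200 bases before the RefSeq start and ends at or before it. Each was placed on GRCm39 by an exact match and is written 5′ to 3′ on the gene's strand. By GENCODE coordinates, those of Top2a, Ccnb2, Cenpf, Kif11 and Bub1b end inside the annotated gene, and that of Cdk1 lies inside it. Positions are counted from the RefSeq start. Capitals mark both motifs. A CCAAT box on the other strand reads ATTGG, and a CHR there may read TTCAAA.
Top2a (chr11:98915033-98915215, minus strand): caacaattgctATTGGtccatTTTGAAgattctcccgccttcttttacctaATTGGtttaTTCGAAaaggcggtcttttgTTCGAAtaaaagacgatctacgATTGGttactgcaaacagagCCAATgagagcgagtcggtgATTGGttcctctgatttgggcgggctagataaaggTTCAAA
Cdk1 (chr10:69188743-69188942, minus strand): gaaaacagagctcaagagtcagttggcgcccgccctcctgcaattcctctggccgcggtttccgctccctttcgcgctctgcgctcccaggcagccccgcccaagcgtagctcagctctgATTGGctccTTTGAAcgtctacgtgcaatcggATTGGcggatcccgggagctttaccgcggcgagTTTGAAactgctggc
Ccnb2 (chr9:70328845-70329036, minus strand): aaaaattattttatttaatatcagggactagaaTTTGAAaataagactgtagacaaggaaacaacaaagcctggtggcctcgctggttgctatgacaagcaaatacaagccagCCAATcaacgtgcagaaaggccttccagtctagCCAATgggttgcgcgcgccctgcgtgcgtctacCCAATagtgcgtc
Cenpf (chr1:189420286-189420483, minus strand): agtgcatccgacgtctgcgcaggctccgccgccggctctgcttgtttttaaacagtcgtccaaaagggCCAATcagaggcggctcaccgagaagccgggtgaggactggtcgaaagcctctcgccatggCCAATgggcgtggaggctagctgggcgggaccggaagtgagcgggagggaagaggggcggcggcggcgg
Kif11 (chr19:37364630-37364828, plus strand): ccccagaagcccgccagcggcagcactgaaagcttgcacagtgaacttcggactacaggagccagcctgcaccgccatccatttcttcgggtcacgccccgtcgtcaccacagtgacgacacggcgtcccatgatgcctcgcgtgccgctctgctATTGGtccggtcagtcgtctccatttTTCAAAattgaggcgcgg
Bub1b (chr2:118428492-118428691, plus strand): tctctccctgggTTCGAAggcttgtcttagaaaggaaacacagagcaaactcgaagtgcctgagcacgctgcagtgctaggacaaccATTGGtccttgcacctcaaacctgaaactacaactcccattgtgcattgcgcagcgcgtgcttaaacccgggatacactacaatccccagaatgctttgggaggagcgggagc
Plk4 (chr3:40754186-40754385, plus strand): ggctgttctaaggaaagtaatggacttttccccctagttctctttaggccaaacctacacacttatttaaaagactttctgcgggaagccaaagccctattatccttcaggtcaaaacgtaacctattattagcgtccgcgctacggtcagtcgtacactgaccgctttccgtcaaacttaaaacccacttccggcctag
In Top2a, 4 CHR and 5 CCAAT matches lie in this window, and in Cdk1 a CHR begins 15 bases before the start. The CHR of Cenpf begins 3 bases past the start and so is not in the stretch printed, and a further CHR of Ccnb2 begins 5 bases past it. The window of Kif11 holds 1 of each motif. A match is a description of these letters and not a measured site.

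A CHR was in 40 of 51 member promoters (78.4%), beside 19.2% of all 32851 promoters in the table. A CCAAT box was in 70.6% of member promoters and 37.4% of all, and both motifs were in 66.7% and 7.52%. Matches were gathered near the start: 45.1% of member promoters had a CHR within the first 50 bases of the transcript and 23.5% within the 50 bases before it, where 2.46% and 2.97% of all promoters did. CCAAT boxes lay further upstream, in 43.1% of member promoters within 50 bases of the start and in 41.2% between 51 and 100 bases before it. With TTTGAA alone as the CHR, the share was 74.5% of member promoters and 17.9% of all, and with TTTAAA added it was 86.3% and 28.8%. Neither motif was found for Plk4, Melk, Birc5, Mad2l1, Pttg1, Nuf2, Kif18a, Nusap1 and Ncaph. No promoter entry was matched for Aurkb, Ccna2, Cdc25c, Foxm1, Incenp, Kif20a, Pbk, Smc4, Spc24 and Tpx2.

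**Figure D2:**
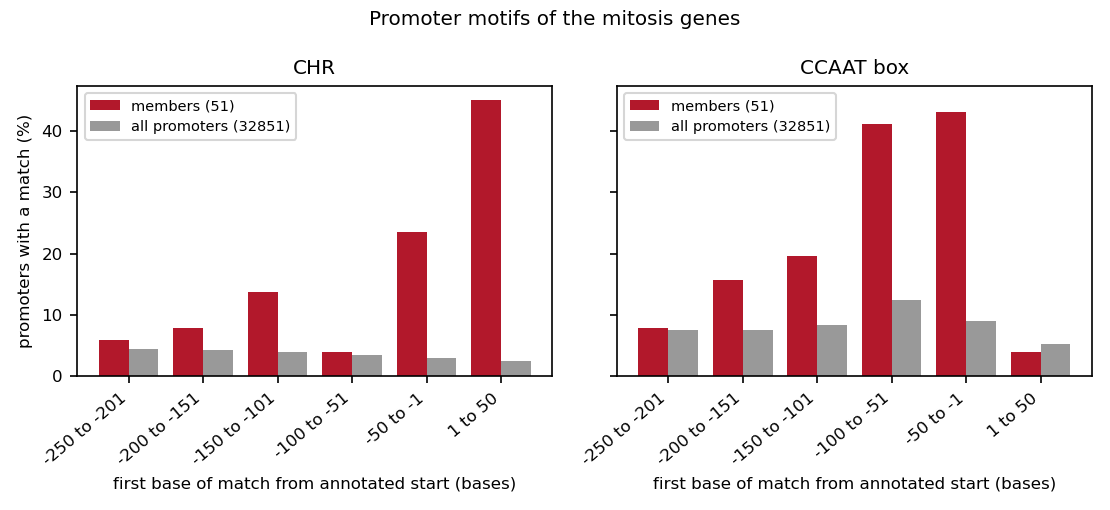
Share of promoters (percent, vertical axis) with a CHR (left) or CCAAT box (right) that begins in each window of 50 bases around the annotated start (horizontal axis), for the 51 member promoters (red) and all 32851 promoters (grey). The CHR bars of the members are highest just past the start (45.1%) and the CCAAT bars in the 100 bases before it (41.2% and 43.1%), while the grey bars stay under 13%.

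Among the 48 members with a promoter entry, the 37 with a CHR had a median log2 fold change of -1.21 and the 11 without had -0.97. Called lower were 35 of the 37 with a CHR and all 11 without one, among them the 9 with neither motif. Of the 1329 other genes tested that had both motifs, 14.7% were lower, with a median log2 fold change of -0.01, and of the 8395 with neither, 13.8% were lower. Bub3 and Cdc25b, which did not pass the test, each have both motifs. Plk4, which was lower, has neither, though its promoter holds TTTAAA, the letters added in the widest form of the CHR.

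The cyclin-Cdk1 core starts mitosis. Of its 7 members 6 were lower, with a median log2 fold change of -1.34. Cyclin B2 (Ccnb2, chr9:70314966-70328874), a mitotic partner of Cdk1, had 189, 156 and 165 normalized counts in WT replicates 1 to 3 and 51.5, 55.2 and 45.3 in Dab2-cKO replicates 1 to 3. This was the largest fall of the group, with a log2 fold change of -1.74 (standard error 0.17, adjusted p = 1.19e-13). Cyclin A2 (Ccna2), which acts from S phase to early mitosis, had 408, 393 and 412 counts in WT and 129, 144 and 127 in Dab2-cKO, and had the highest level of the group per kb of exon, 99.0 in WT and 32.6 in Dab2-cKO. Of the exon bases of Ccna2, 17.5% overlap exons of Exosc9 on the opposite strand. Ccnb1, the main mitotic cyclin, had a log2 fold change of -1.44, and Foxm1, a transcription factor of G2 and M genes, one of -1.34. Cdk1 itself was at 256, 285 and 296 counts in WT and at 129, 119 and 115 in Dab2-cKO (log2 fold change -1.21, standard error 0.13, adjusted p = 8.59e-13). For all of these genes the labelled genotypes were clearly apart.

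The CDC25 phosphatases remove the inhibitory phosphates from Cdk1, and they had the smallest log2 fold changes of the core. Cdc25b (chr2:131027866-131044913) had 252, 309 and 238 normalized counts in WT and 207, 213 and 232 in Dab2-cKO. The highest Dab2-cKO library was only just under the lowest WT library. By edgeR the log2 fold change was -0.30 with a standard error of 0.12, and its adjusted p of 0.0501 was next to the threshold. The adjusted p of Cdc25b was 0.0417 without WT replicate 1, 0.0318 without WT replicate 3 and 0.0316 without Dab2-cKO replicate 3, and it was 0.42 without WT replicate 2, where the log2 fold change was -0.16. Cdc25c had 125, 95.7 and 107 counts in WT and 59.1, 77.1 and 34.2 in Dab2-cKO, a log2 fold change of -0.94 (standard error 0.20, adjusted p = 0.000139). The Dab2-cKO libraries of Cdc25c were spread wide, and 31.4% of its exon bases overlap exons on the opposite strand.

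Of the kinases that act in mitosis, 5 of 5 were lower, with a median log2 fold change of -1.29. Plk1 (chr7:121758646-121769108), which acts from mitotic entry to cytokinesis, had 125, 162 and 155 normalized counts in WT and 42.0, 49.5 and 50.8 in Dab2-cKO, a log2 difference of -1.64 (standard error 0.18, adjusted p = 8.84e-12). Aurora A (Aurka), the kinase of spindle poles, stood at 114, 122 and 126 counts in WT and at 61.0, 67.9 and 53.0 in Dab2-cKO, a log2 fold change of -0.99, and 38.6% of its exon bases overlap exons on the opposite strand. Plk4, which drives centriole duplication and thus acts before mitosis, fell least of the kinases: 296, 337 and 321 counts in WT against 171, 170 and 175 in Dab2-cKO, a log2 fold change of -0.89. Melk and Pbk, kinases found in dividing cells, had log2 fold changes of -1.29 and -1.34.

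The chromosomal passenger complex corrects wrong attachments at the centromere and later moves to the central spindle. All 4 members were lower (median log2 fold change -1.21). Its kinase Aurora B (Aurkb) had 139, 207 and 178 normalized counts in WT and 68.7, 55.2 and 57.4 in Dab2-cKO, a log2 fold change of -1.53 (standard error 0.17, adjusted p = 7.69e-12). Incenp, the scaffold that activates the kinase, had the highest level of the 4 per kb of exon (78.5 in WT, 43.2 in Dab2-cKO) and the smallest fall, -0.86. Its counts were 513, 709 and 578 in WT and 359, 341 and 292 in Dab2-cKO. The log2 fold change was -1.41 for borealin (Cdca8) and -1.01 for survivin (Birc5), which bring the complex to the centromere. Within this complex of fixed partners the RNA of the scaffold was at 55.0% of its WT level and that of the kinase at 34.7%.

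The spindle checkpoint held the widest range of the 10 roles. Of its 5 members 4 were lower, with a median log2 fold change of -0.92. The kinase Bub1 (chr2:127643036-127673806), which marks kinetochores for checkpoint proteins, had 202, 157 and 154 normalized counts in WT and 44.8, 52.9 and 65.1 in Dab2-cKO, a log2 fold change of -1.65 (standard error 0.18, adjusted p = 1.43e-12). BubR1 (Bub1b), a part of the complex that inhibits the APC/C, had 523, 563 and 590 counts in WT and 216, 200 and 213 in Dab2-cKO (log2 fold change -1.41). Mad2l1, which encodes the inhibitor Mad2, fell by 0.92 on the log2 scale.

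The other two checkpoint genes stood apart from these. Ttk, the kinase Mps1 that starts checkpoint signalling, had 157, 160 and 185 normalized counts in WT and 120, 125 and 125 in Dab2-cKO, a log2 fold change of -0.44 (standard error 0.14, adjusted p = 0.0131). It was the only member called lower by less than 1.5-fold, and without WT replicate 3 Ttk was not called (-0.35, adjusted p = 0.129). Bub3 (chr7:131161880-131178553), the adaptor that carries Bub1 and BubR1 to kinetochores, had 277, 212 and 313 counts in WT and 240, 254 and 222 in Dab2-cKO. Its libraries overlapped: WT replicate 2 was the lowest of all 6. The log2 fold change of Bub3 was -0.16 (standard error 0.12, adjusted p = 0.363), and leaving out single replicates gave values from -0.30 to -0.02. With upper-quartile scaling Bub3 was called lower (-0.31, adjusted p = 0.0354), as it was with library size only (-0.60, adjusted p = 1.76e-05).

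Anaphase is triggered by the APC/C and the protease it sets free. All 4 members were lower (median log2 fold change -1.12). Cdc20, which activates the APC/C in mitosis, had 154, 194 and 144 normalized counts in WT and 68.7, 58.7 and 65.1 in Dab2-cKO, and the highest level of the 4 per kb of exon, 84.2 in WT and 32.9 in Dab2-cKO. It changed by a log2 value of -1.35 (standard error 0.17, adjusted p = 3.36e-10). Ube2c, the ubiquitin-conjugating enzyme of the APC/C, had a log2 fold change of -1.48, and 19.0% of its exon bases overlap exons on the opposite strand. Separase (Espl1), the protease that opens cohesin, had one of -0.88. Securin (Pttg1), which inhibits separase, had 56.8, 71.3 and 88.9 counts in WT and 39.1, 34.5 and 55.2 in Dab2-cKO. The highest Dab2-cKO library was next to the lowest WT library, and the log2 fold change of Pttg1, -0.76 (standard error 0.23, adjusted p = 0.00828), became -0.58 (adjusted p = 0.134) without WT replicate 3.

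**Figure D3:**
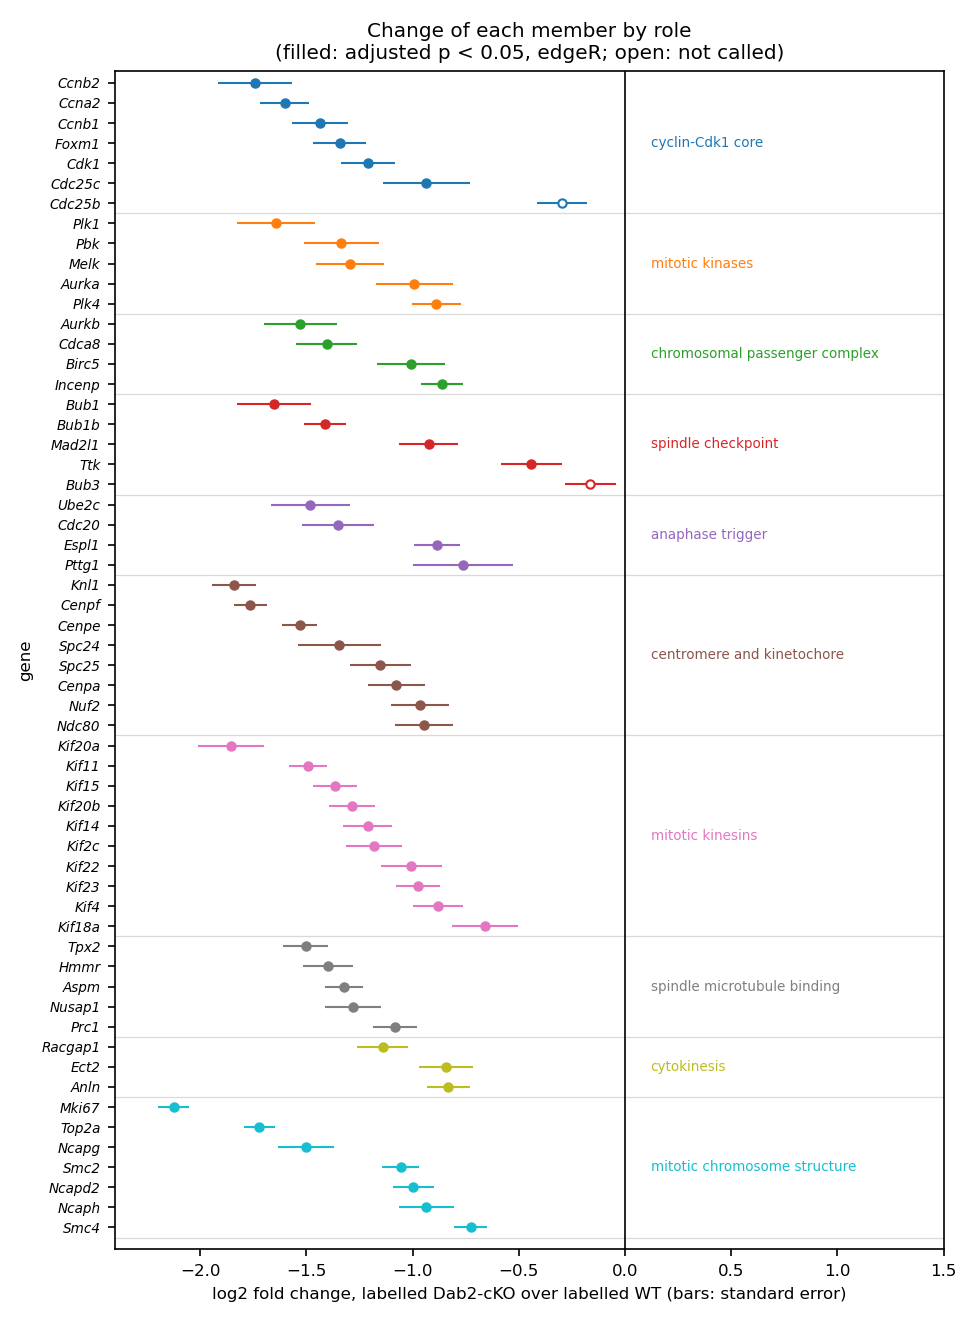
Log2 fold change of each of the 58 members (horizontal axis, libraries labelled Dab2-cKO over WT, bars show the standard error), grouped by role. All 58 points lie left of 0, from -2.12 for Mki67 to -0.16 for Bub3, and only Bub3 and Cdc25b are drawn open as not called.

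The centromere and kinetochore genes were lower in 8 of 8 cases, with a median log2 fold change of -1.25. The largest falls were in the large outer proteins. Cenpf (chr1:189372752-189420315), a farnesylated protein of the outer kinetochore, had 1671, 1744 and 1796 normalized counts in WT and 558, 478 and 498 in Dab2-cKO, a log2 fold change of -1.76 (standard error 0.08, adjusted p = 2.08e-31). Knl1 (chr2:118877598-118935982), the docking platform for Bub1 and BubR1, had 597, 586 and 598 counts in WT and 155, 167 and 175 in Dab2-cKO, a log2 fold change of -1.84 (standard error 0.10, adjusted p = 1.6e-25). Cenpe, a kinesin that carries chromosomes to the spindle equator, fell by 1.53 on the log2 scale, from 945 ± 42.1 to 327 ± 21.4 (SD, n = 3 each). In each of these 3 genes the WT libraries varied by little and the Dab2-cKO libraries lay at about the same low level.

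The 4 genes of the Ndc80 complex, which grips the microtubule end, moved by similar amounts: Spc24 by -1.35 (standard error 0.20), Spc25 by -1.15 (0.14), Nuf2 by -0.97 (0.14) and Ndc80 by -0.94 (0.14) on the log2 scale. Differences between these values were not tested. Of the exon bases of Spc25, 52.5% overlap exons of Nostrin on the opposite strand. Cenpa, the histone H3 variant that defines the centromere, had 220, 290 and 291 normalized counts in WT and 149, 104 and 127 in Dab2-cKO, a log2 fold change of -1.08. Per kb of exon it was the lowest of the group, 20.01 in WT and 9.47 in Dab2-cKO.

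Of the mitotic kinesins, motors that push, slide and depolymerize microtubules, 10 of 10 were lower (median log2 fold change -1.20). Kif11 (Eg5, chr19:37364799-37410307), which pushes the spindle poles apart, had 734, 723 and 737 normalized counts in WT and 256, 263 and 260 in Dab2-cKO. Both labelled genotypes were tight for Kif11, with a log2 fold change of -1.49 (standard error 0.09, adjusted p = 1.07e-23) and the highest level of the 10 per kb of exon (81.7 in WT, 29.0 in Dab2-cKO). Kif20a, a kinesin of the central spindle, had the largest fall, from 214, 238 and 236 counts to 62.0, 54.1 and 73.9 (log2 fold change -1.86, standard error 0.15, adjusted p = 6.41e-17). Since 61.5% of its exon bases overlap exons of Brd8 and Cdc23 on the opposite strand, the strand setting of the counting, which is not given, bears on this value. The log2 fold change was -1.37 for Kif15, which acts beside Kif11, and -1.28, -1.21 and -0.97 for Kif20b, Kif14 and Kif23 of cytokinesis. It was -1.18 for Kif2c, which depolymerizes microtubules, and -1.01 and -0.88 for Kif22 and Kif4, which are bound to chromosomes. Kif18a, which dampens chromosome movements at the equator, had 147, 141 and 161 counts in WT and 100.1, 98.95 and 84.98 in Dab2-cKO, the smallest fall of the kinesins (-0.66, standard error 0.16, adjusted p = 0.000453). Kif18a also had the lowest level of the 10 per kb of exon, 13.7 in WT and 8.67 in Dab2-cKO.

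The proteins that bind and bundle spindle microtubules fell together, 5 of 5, over a narrow range of log2 fold changes from -1.50 to -1.08 (median -1.32). Tpx2, which seeds microtubules near chromosomes and activates Aurora A, had 554, 601 and 555 normalized counts in WT and 244, 174 and 182 in Dab2-cKO, a log2 fold change of -1.50 (standard error 0.11, adjusted p = 2.3e-20). It had the highest level of the 5 per kb of exon, 121 in WT and 42.5 in Dab2-cKO. Nusap1, a microtubule bundler with the lowest level in WT (45.7 per kb), had a log2 fold change of -1.28. Hmmr and Aspm, proteins of the spindle poles, were at -1.40 and -1.32, and Prc1, the crosslinker of the central spindle, was at -1.08.

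The genes of cytokinesis that are not kinesins had a median log2 fold change of -0.84, with 3 of 3 lower. Kif20b, Kif14 and Kif23 also act there and are described with the kinesins. Racgap1, which with Kif23 forms centralspindlin, had 386, 373 and 308 normalized counts in WT and 152, 140 and 191 in Dab2-cKO, a log2 fold change of -1.14 (standard error 0.12, adjusted p = 9.72e-13). Ect2, which activates RhoA at the furrow, had 262, 241 and 281 counts in WT and 133, 160 and 146 in Dab2-cKO (-0.84, adjusted p = 4.9e-08). Anillin (Anln), the scaffold of the contractile ring, had 434, 519 and 436 in WT and 257, 270 and 254 in Dab2-cKO (-0.83, adjusted p = 1.38e-10). The labelled genotypes did not overlap in any of the 3 genes.

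By edgeR, mitotic chromosome structure held both the largest fall of all members and one of the smaller ones. Mki67 (chr7:135291513-135318299), whose protein Ki67 coats mitotic chromosomes, had 5854, 6537 and 6095 normalized counts in WT and 1429, 1458 and 1351 in Dab2-cKO, or 22.9% of the WT mean. Top2a (chr11:98883769-98915062), the topoisomerase that untangles sister chromatids, had 2384, 2577 and 2512 counts in WT and 744, 709 and 812 in Dab2-cKO, a log2 fold change of -1.72 (standard error 0.07, adjusted p = 7.91e-32). Condensin I is the ring that compacts chromosomes. Its genes had log2 fold changes from -1.50 to -0.73, and differences between them were not tested. Its subunit Ncapg had 266, 325 and 302 counts in WT and 96.3, 97.8 and 123 in Dab2-cKO (log2 fold change -1.50, standard error 0.13), with 25.01% of its exon bases in overlap with exons of Lcorl on the opposite strand. Ncapd2 and Ncaph, the other subunits particular to condensin I, had log2 fold changes of -0.996 and -0.93. Smc2 and Smc4, the ATPase arms shared with condensin II, had -1.06 and -0.73. Smc4 (chr3:68911944-68941960) had 1204, 1146 and 1205 counts in WT and 719, 648 and 779 in Dab2-cKO (standard error 0.08, adjusted p = 6.86e-13), and its libraries stayed clearly apart.

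Per kb of exon, the levels of the members in WT spanned from 13.7 for Kif18a to 600 for Mki67, followed by Top2a at 273 and Smc4 at 183. The length used was the union of all annotated exons of a gene, 13.4 kb for Cenpa and 14.6 kb for Bub3. A long union lowers the level per kb, and how much of it the RNA of these cells held was not tested. Chemosensory receptor genes (the olfactory, vomeronasal and trace amine families) were taken as a measure of background, and use of single receptors by skin was not tested. Over these 1521 genes the median was 4.83 normalized counts per kb in WT and 4.77 in Dab2-cKO. The 95th percentiles were 12.4 and 11.8. All 58 members were above this percentile in WT. In Dab2-cKO 55 were, and Cenpa, Cdc25c and Kif18a were under it, at 9.47, 9.37 and 8.67. When an even background of this size was subtracted, the median log2 fold change was -1.51. The fall was larger in 58 of 58 members, which follows by arithmetic where nearly equal amounts are taken from both labelled genotypes. The log2 fold change of Cenpa became -1.69, that of Kif18a -1.18 and that of Bub3 -0.22. The amount subtracted grows with the exon length: for Cenpa in Dab2-cKO it was 63.7 of a mean normalized count of 126. With this subtraction the largest falls were those of Kif20a (-2.38) and Bub1 (-2.19), ahead of Mki67 (-2.16). Members with a higher level in WT had larger falls (Spearman's rho across the 58 genes -0.56, and -0.33 with the background subtracted from the fold changes), which is a description, as the genes share the same 6 libraries and the WT level enters both measures.

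**Figure D4:**
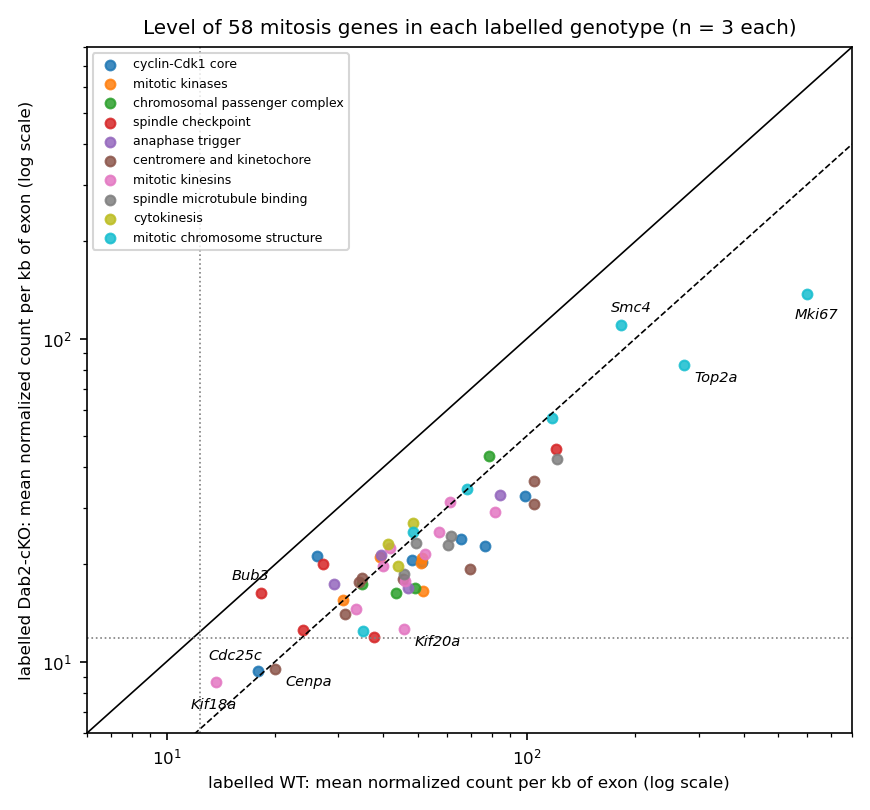
Mean normalized count per kb of exon of each member in the libraries labelled WT (horizontal) and Dab2-cKO (vertical), both on log axes, colored by role, with the line of equal levels (solid), the line of a fall to 1/2 (dashed) and the 95th percentile of the receptor genes (dotted, 12.4 and 11.8). All 58 genes lie under the solid line, 38 of them under a log2 fold change of -1, and Mki67 is highest in both labelled genotypes.

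Mki67, the marker of cycling cells, had the largest fall of the members by edgeR (log2 fold change -2.12). The ratio of a member's normalized count to that of Mki67 was higher in Dab2-cKO for 57 of the 57 others. This follows from taking the member that fell most as the reference. Even a gene at the median of all genes tested (-0.02) would rise relative to Mki67. The ratios of Kif20a and Bub1 to Mki67 overlapped between the labelled genotypes. On the log2 scale the ratio rose by 0.28 for Knl1 and by 0.36 for Cenpf, and by 1.39 for Smc4, 1.69 for Ttk and 1.98 for Bub3, each as the difference of group means without a test.

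Other genes of cell division, held in separate lists, moved by different amounts. The genes nearest in function, 38 further mitotic genes that were in the table, were lower in 34 cases and not called in 4, with a median log2 fold change of -0.97. They ran from Lmnb1, lamin B1 of the nuclear envelope (-1.79, adjusted p = 5.53e-30), to Mtfr2 (0.12, not called, adjusted p = 0.763, and -0.30 with library size only). Among genes of DNA replication, 25 of 32 were lower and 1 higher, with a median of -0.67. Uhrf1, which takes part in copying DNA methylation after replication, was at -1.89 (adjusted p = 3.74e-27). Gins4 of the replicative helicase was at 0.37 (adjusted p = 0.0417, and -0.06 with library size only).

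Lists of other chromosome and spindle partners had medians nearer to 0. Of 25 further centromere and kinetochore genes, those of the Mis12 complex among them, 12 were lower and 3 higher (median -0.41). The highest was Cenpb, which binds satellite DNA (0.94, adjusted p = 2.67e-17). Of 13 cohesin genes 8 were lower and 1 higher (median -0.25). The extremes were Esco2, a cohesin acetyltransferase of S phase (-1.03, adjusted p = 3.79e-08), and Pds5b, a regulator of cohesin on DNA (0.23, adjusted p = 0.0266, and -0.20 with library size only). Condensin II had Ncapg2 at -0.88 (adjusted p = 1.43e-12) and Ncaph2 at 0.11 (adjusted p = 0.408, and -0.31 with library size only), with 2 of 3 genes lower. Of 23 tubulin and centrosome genes 11 were lower and 12 not called (median -0.20), from Stil of centriole assembly (-1.23, adjusted p = 6.46e-09) to pericentrin, Pcnt (0.07, adjusted p = 0.602, and -0.36 with library size only).

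The APC/C list lay nearest to the median of all genes, and the transport kinesins were the list with a median above 0. Of 16 APC/C genes 1 was lower (Anapc1, -0.40, adjusted p = 3.67e-06) and 1 higher (Anapc2, 0.30, adjusted p = 0.00205, and -0.13 with library size only), with a median of -0.04, whereas its mitotic activator Cdc20 and its enzyme Ube2c, both members, were at -1.35 and -1.48. Of 16 kinesins with roles outside mitosis, most of them in transport, 2 were lower and 5 higher (median 0.17), from Kif26b (-0.81, adjusted p = 4.02e-09) to Kif13a (0.39, adjusted p = 1.82e-05, and -0.04 with library size only). The CHR was in 16.7% of the APC/C promoters (3 of 18) and 14.3% of those of the transport kinesins (2 of 14), and in 69.7% of those of the further mitotic genes (23 of 33). In promoters of DNA replication genes it was in 18.8%, with a CCAAT box in 62.5%. The shares did not follow the median changes in every list. Condensin II, with a median of -0.52, had a CHR in 3 of 4 promoters. The list of further centromere and kinetochore genes had a CCAAT box in 73.1% of promoters, beside 70.6% for the members, and a CHR in 30.8% (8 of 26). The CHR was in 33.3% of cohesin promoters (3 of 9) and in 18.8% of those of tubulins and the centrosome (3 of 16). These shares rest on few promoters. Entries were matched for 8 of the 13 cohesin genes and 16 of the 23 tubulin and centrosome genes.

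**Figure D5:**
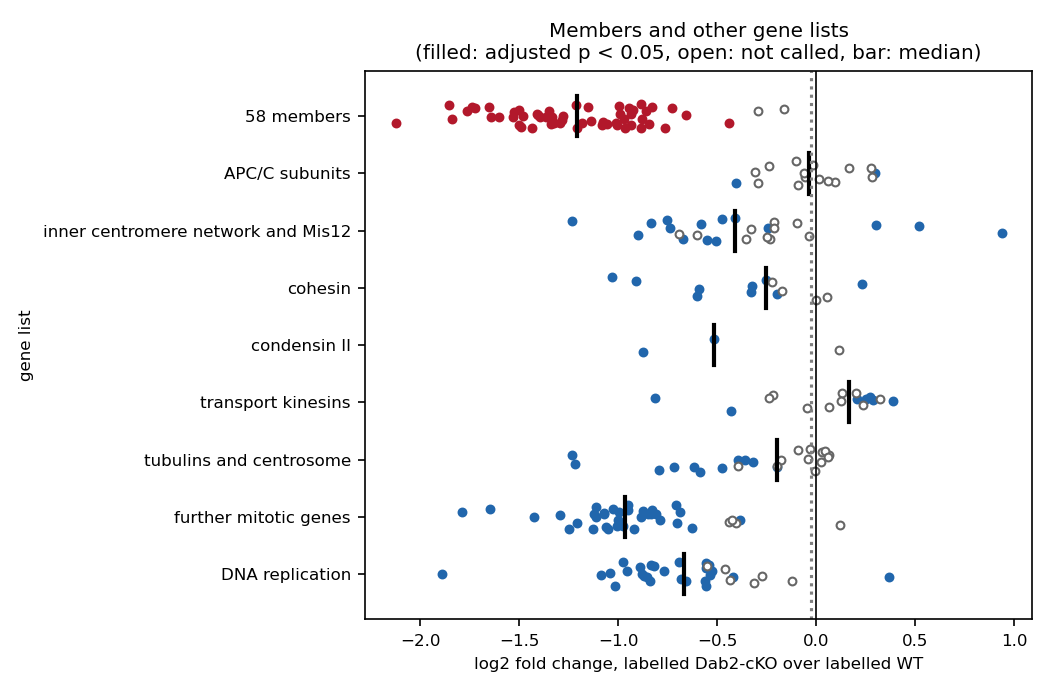
Log2 fold change (horizontal axis, libraries labelled Dab2-cKO over WT) of the 58 members (red) and of the genes of 8 other lists (blue), where open points were not called, black bars are medians and the dotted line is the median of all genes (-0.02). The members lie furthest left (median -1.21), then the further mitotic genes (-0.97) and DNA replication (-0.67), and the APC/C (-0.04) and the transport kinesins (0.17) lie about 0. The row marked inner centromere network and Mis12 holds the further centromere and kinetochore genes.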

How the data were processed

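Per the labels and the study's methods, the authors made stranded total RNA libraries from sorted HFSCs, checked reads with FastQC 0.11.9, trimmed them with fastp 0.23.4, aligned them to GRCm39 with HISAT2 2.2.1, sorted them with SAMtools 1.6 and counted reads per gene with featureCounts 2.0.6. The deposited table holds these raw counts per gene, without normalization, for 56941 genes in 6 libraries, of which 6770 rows carry no gene name. The strand setting of the counting and the annotation release are not given in the sources used here. By annotation, exons of 12 members overlap exons of another gene on the opposite strand by more than 10% of their bases, and 25 members have no overlap. The 12 are Ccna2, Cdc25c, Aurka, Plk4, Ube2c, Spc25, Kif4, Kif20a, Kif22, Prc1, Smc2 and Ncapg. The authors' second table, their own comparison by DESeq2 1.42.0, was not used; it holds fold changes and p-values. The columns of the Dab2-cKO group are named FL-FL, and were assigned by the series title, which gives Dab2 Fl/Fl for the cKO.

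Genes were filtered by the default expression filter of edgeR 4.0.16 in R 4.3.3, which kept 32149, and scaled by TMM (factors 1.11 to 1.21 in WT, 0.847 to 0.876 in Dab2-cKO). The genotypes were compared by edgeR's robust quasi-likelihood test with Benjamini-Hochberg adjustment over all genes kept and called at an adjusted p under 0.05. Standard errors were derived from this test, as the absolute log2 fold change over the square root of its F statistic. A normalized count is a count over its library's effective size (total times TMM factor), times the mean of these sizes. The procedure was tested on simulated data in which as many genes were raised as lowered. That simulation did not try the scaling on libraries that differ in composition as widely as these. Exon lengths, coordinates and overlaps came from GENCODE M39, which matched 98.9% of gene IDs. An exon length is the union of all exons annotated for a gene. Replicates differed by more than sampling noise (chi-square per degree of freedom from 3.54 to 11.7). No member was at 0 in any library, and limits from counts cover counting error only.

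The members, the roles and the other lists were chosen with earlier results of these data known, so they are no independent support. The genes named with values were the highest and lowest per kb of each role, the 5 largest and 5 smallest log2 fold changes, every member not called or whose call changed in an alternative, Dab2, and the extremes of each other list; further members were added for their roles. The alternatives were DESeq2, upper-quartile scaling, library size only, TMM without mitochondrial and the 100 most abundant genes, dropping the low-count filter, requiring a mean count of 50, a replicate block, a test against 1.5-fold, each library left out, subtraction of an even background, and other forms of the CHR.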

Additional observations from a re-analysis of the deposited data

How the results depend on the processing

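The number of members lower was 56, and 56 to 58 under the other scalings, filters and the replicate block, 50 with a test against 1.5-fold, and 55 to 57 with each replicate left out. No member was higher in any of these. Lower by more than 1.5-fold were 55 members, and 50 to 58 in the alternatives. The median log2 fold change of -1.21 became -1.35 by upper-quartile scaling, -1.64 by library size only, -1.30 with genes under a mean count of 50 dropped and -1.51 with the even background subtracted, and lay between -1.26 and -1.19 with each replicate left out. Upper-quartile scaling and library size only moved the median of all genes to -0.17 and -0.45, and the members' median stood 1.19 under that of all genes on the log2 scale in both, as it did before. The share of lower genes among all calls was 40.6%, 56.5% by upper-quartile scaling and 80.6% by library size only, in that the scaling shifts every gene. The number of genes lower was 3682, and 11168 with library size only, 5561 with upper-quartile scaling and 1136 with a test against 1.5-fold, and the number higher 5387, 2686 with library size only and 2222 with a test against 1.5-fold.

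Calls changed for 8 members. Cdc25b gained its call in 8 alternatives and Bub3 in 2. Ttk and Pttg1 lost theirs without WT replicate 3 and in the test against 1.5-fold, and Cdc25c, Kif18a, Ect2 and Smc4 in the latter. No member changed sign.

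Genes outside the members changed sign as follows. With library size only, Anapc2 was at -0.13, Pds5b at -0.20, Ncaph2 at -0.31, Kif13a at -0.0399, Pcnt at -0.36, Mtfr2 at -0.30 and Gins4 at -0.0601. With upper-quartile scaling, Ncaph2 was at -0.0274, Pcnt at -0.0776 and Mtfr2 at -0.0212. Pcnt was at -0.0205 with genes under a mean count of 50 dropped and at -0.00809 without Dab2-cKO replicate 2, and with each replicate left out it lay between -0.00809 and 0.11.

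The replicate numbers share only a label. The deviations of same-numbered libraries correlated by 0.0221, 0.0125 and 0.00649 over all genes, so the numbers were not taken to pair the samples. With the replicate block, 56 members were lower, 55 by more than 1.5-fold and none higher, with a median log2 fold change of -1.21. Depth limits the least abundant members, as Pttg1 had between 30 and 104 counts per library.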
